A study of Capra hircus with 10 samples.

Results

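At 372 of the 1327 circRNA loci found in goat intramuscular preadipocytes and adipocytes, the reads taken as linear outnumbered those taken as circular by a wide margin. A locus is the stretch between the 2 ends of a circRNA. Its junction reads (J) cross the back-splice junction and are taken as reads of the circle, though no removal of linear RNA before sequencing is described. Its non-junction reads (N), called linear reads here, are taken as reads at the same ends that do not cross that junction. Their exact definition is not given in the sources used here. J and N were summed over the libraries that list the locus, and the 372 loci were chosen by their circular share, 2J/(2J + N), of 5% or less. A further 950 loci had a share above 5%, and 5 loci had no entry in the libraries used.

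The libraries came from cells of the intramuscular fat of the longissimus dorsi muscle of 3 male Jianzhou goats, 7 days old, all labelled WT. The IMPA group (intramuscular preadipocytes) held 5 libraries from day 0 of induction and the IMA group (intramuscular adipocytes) held 5 libraries from day 3 in an induction medium with oleic acid. Since 5 libraries of each group go back to only 3 goats, some must share an animal, and the p-values measure the spread between these libraries. A change per cell and a change in the mix of cells in a dish cannot be told apart in such bulk libraries.

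A circRNA forms when the spliceosome joins the end of a downstream exon to the start of an upstream exon, so that each circle is made at the cost of, or next to, a linear transcript of the same gene. Most genes with circRNAs yield far more linear than circular RNA, and circles lack free ends and decay slowly. In fat cell differentiation, preadipocytes of fibroblast form remodel their matrix and cytoskeleton and fill with lipid droplets.

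Per library, the linear reads of all loci summed to 297727 to 435228 in IMPA and 199376 to 291370 in IMA, and junction reads to 11421 to 15553 and 9622 to 12499. Uniquely mapped reads were also fewer in every IMA library than in any IMPA library. The paper reports similar numbers of clean reads in both groups but a lower mapping ratio in every IMA library than in any IMPA library. This difference between libraries cannot be told apart from the group. Calls at named loci that were lost with uniquely mapped reads as library sizes are given beside the results or in the last section. Marker genes could hardly be read. None of the 13 preadipocyte and fibroblast, 9 adipocyte, 6 endothelial, 5 immune and 6 smooth muscle and pericyte markers hosted a locus, and of 12 striated muscle markers only MYBPC1, MYPN and PAX7 did. The labelled cell type therefore could not be checked against its defining markers.

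The members stood apart from the other loci more by their linear than by their junction reads. The members had a median of 3235 linear reads over the 10 libraries, with quartiles of 1982 and 5262, against 924 at the loci above 5%. Their median junction reads were 40, against 66. The members were selected on these reads, so the values are a description. The 372 loci held 61.8% of all linear reads, 14.7% of all junction reads, and between 60.1% and 63.3% of the linear reads of each single library. The median share was 2.69% and the lowest 0.133%. Just inside the limit were a locus of KIF27 (circ_0004553, 15 junction and 570 linear reads, exactly 5%) and a locus of ZNF280D (circ_0005460, 4.98%). Just outside were a locus of STRN3 (circ_0009734, 5.01%) and a locus of SENP6 (circ_0004800, 5.02%).

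**Figure D1:**
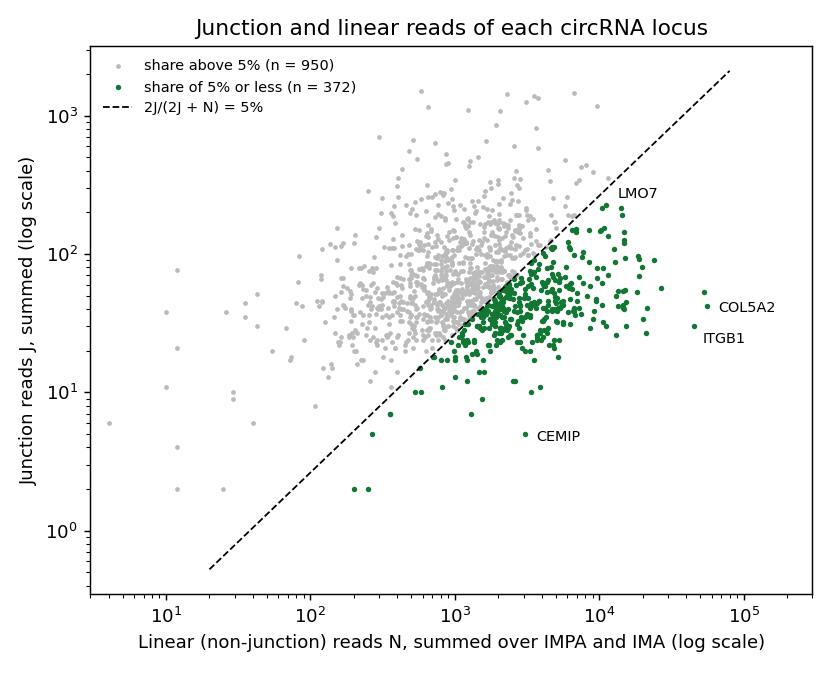
Junction reads (vertical axis) and linear reads (horizontal axis) of each locus, summed over the listed IMPA and IMA libraries, both on log scales; the dashed line is the share of 5%. The 372 members (green) lie below the line and reach the highest linear reads, 45205 at ITGB1 and 55857 at COL5A2, while the 950 other loci are grey.

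In length and kind the members lay close to the rest of the table. Their median spliced length was 312 nt against 324 nt, and their median span on the genome 8038 nt against 8013 nt. The median number of exon blocks was 2 in both sets. Exonic loci made up 98.9% of the members (368 exonic, 3 intronic, 1 intergenic) and 95.1% of the others. Members that share an end with another locus made up 29.8%, against 32.1%. Of the members with a host in the RefSeq gene table, 369 lay in protein-coding genes and 2 in lncRNA genes. No sequence is shown because no genome of the files' build was used here.

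Linear reads enter the share, and of the 8 members with the lowest shares 6 were also among the 8 with the most linear reads. The locus with the lowest share lay in ITGB1, the beta-1 integrin subunit that binds matrix proteins (circ_0006883, chromosome 13, 19334994 to 19338622), with 30 junction and 45205 linear reads. The next lay in COL5A2, a chain of fibrillar collagen V (circ_0000993, chromosome 2, 129201370 to 129203710), with 42 and 55857, a share of 0.15%. PTN, the secreted growth factor pleiotrophin, followed with 53 and 52894 (circ_0002184, 0.2%). Shares under 0.4% were also found at 2 loci of EIF3E, a subunit of a translation initiation factor (0.257% and 0.34%), and at single loci of the hyaluronan-binding protein CEMIP (0.324%), the kinesin heavy chain KIF5B (0.379%) and complement factor C3 (0.387%). MINOS1, a mitochondrial inner membrane protein, had 26661 linear reads at a share of 0.426%.

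The 372 members had 292 named hosts, of which 239 gave a single member, 41 gave 2 and 12 gave 3 or more. LMO7, a protein of cell junctions and the actin cytoskeleton, gave the most, with 9 members and no locus above 5%. CEMIP gave 6, the ubiquitin ligase RFWD2 5, and APP (the amyloid precursor protein), the kinesin-associated KIFAP3 and the dystrophin relative UTRN 4 each. Within LMO7 the shares ran from 0.537% to 3.87%, while the linear reads at 8 of the 9 loci lay between 9545 and 15153. Junction reads differed more, from 24 to 226. The 4 APP loci had 12679 to 18855 linear reads and shares of 0.56% to 1.68%, and the 5 RFWD2 loci 1884 to 2586 linear reads and shares of 2.59% to 4.86%. Loci of a host share transcripts and often an end, so that they are not separate measurements of it. In LMO7, 8 of 9 members shared an end with another locus. The linear reads of the 5 RFWD2 and 4 UTRN members had log2 changes from -0.18 to 0.04 between the groups, and none passed the test described below.

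Of the 292 hosts, 56 also had loci above 5%, 83 in all. In CEMIP a single locus (circ_0009677) had 1175 junction reads and a share of 19.6%, with 9624 linear reads, close to the 9675 of the member circ_0009657 with 79 junction reads. In KIFAP3 a locus with a share of 14.1% had 478 junction reads beside 5801 linear reads, and the 4 members had 21 to 123 junction reads beside 2931 to 6120. Linear reads are summed over the listed libraries only, so that members listed in few libraries have lower sums.

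**Figure D2:**
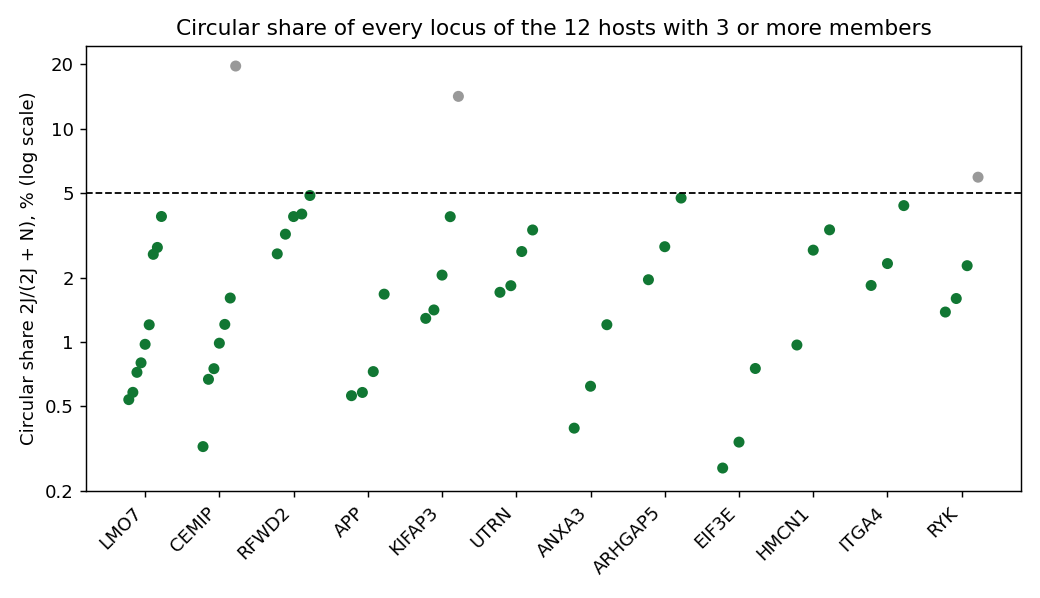
Circular share (vertical axis, percent, log scale) of every locus of the 12 hosts with 3 or more members; green points are members, grey points loci above 5%, and the dashed line is 5%. LMO7 has 9 members from 0.537% to 3.87%, and CEMIP and KIFAP3 each have a grey point far above the line, at 19.6% and 14.1%.

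A low share in either group was mostly low in the other. The rule applied to the IMPA libraries alone chose 415 loci, of which 411 had entries in IMA. There, 296 were again at 5% or less, and the highest reached 13.3%. Applied to the IMA libraries alone it chose 318 loci, of which 312 had entries in IMPA, 296 were at 5% or less and the highest reached 7.18%.

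The shares were higher in IMA. Over the 132 members listed in all 10 libraries, the summed share was 1.91% ± 0.0996 (SD, n = 5) in IMPA, from 1.77% to 2.01%, and 2.41% ± 0.0653 in IMA, from 2.35% to 2.5%. The groups did not overlap. The members were chosen on this same share summed over both groups, so the shift is a description and was not tested. The 558 loci above 5% listed in all libraries, set apart by the same rule, moved the same way, from 15.6% ± 0.721 to 18.2% ± 0.511. The ratio of IMA to IMPA was 1.26 for the members and 1.16 for the others, and the difference between these ratios was not tested. Single members went both ways, such as RAB12 circ_0010560 with 3.32% in IMPA and 1.65% in IMA. The tests below scale junction and linear reads each to their own library size, which takes out a shift of the summed share.

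Linear reads changed at many members. A file entry for N exists only in libraries in which the circle itself was found, at 2 junction reads or more, so 132 members with entries in all 10 libraries were tested by edgeR's quasi-likelihood test together with all 690 such loci. At a Benjamini-Hochberg adjusted p under 0.01, 50 of the 132 changed (37.9%), 29 upwards and 21 downwards, where 21.7% of all loci tested changed, 11.6% upwards and 10.1% downwards. The members carry more linear reads, a median of 4701 against 1233 among the tested loci above 5%. With at least 3000 linear reads, 44 of 100 members and 17 of 47 other loci were called, and with 2000 to 3000 reads 5 of 25 members and 26 of 85 others. The changes were mostly small. Those called ran from 1.12-fold to 3.82-fold, and 94 of the 132 members moved by less than 1.2-fold. The groups did not overlap at 50 of the 132 members, 31 with IMA above and 19 below, against 22.2% of all 690 loci.

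The direction of small changes depends on the scaling. With plain library sums in place of TMM factors, 19 members rose and 30 fell, and with uniquely mapped reads as library sizes 19 rose and 26 fell. Among all loci these splits were 48 to 106 and 49 to 93, in place of 80 to 70.

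Another 172 members had entries in at least 3 libraries of each group and were tested by limma with missing entries left out, over 1183 loci. Of the 304 members in that fit, 56 rose and 43 fell at an adjusted p under 0.01, together 32.6%, where 19.5% of all loci tested changed, 9.97% upwards and 9.55% downwards. The calls fell on 76 hosts, 44 with a rise and 32 with a fall. Of the 50 members called by edgeR, 46 were also called by limma. The median log2 change was 0.03 over the members in either test, and 0.00 over all loci. With plain library sums, an alternative chosen after the data were seen, 38 members rose and 57 fell. The other 68 members were in neither test.

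The largest change was at PLIN2, the coat protein of lipid droplets (circ_0004263, chromosome 8, 25000462 to 25002136). Its normalised linear reads, per 1000000 reads of the TMM-scaled linear library size, were 4206, 5515, 3075, 4129 and 2920 in IMPA1 to IMPA5 and 17108, 17028, 11286, 15995 and 14405 in IMA1 to IMA5. The lowest IMA library was above the highest IMPA library, and the rise was 3.82-fold (log2 change 1.93 ± 0.12 SE, edgeR adjusted p = 1.51e-14). The circle had 2, 4, 4, 2 and 3 junction reads in IMPA and 7, 6, 10, 9 and 7 in IMA, and its change was 1.16 ± 0.34 on the log2 scale (edgeR adjusted p = 0.0752). The difference between the circular and linear change, from the joint fit described below, was -0.35 with a 95% interval from -1.47 to 0.77. It is not the subtraction of the 2 separately fitted changes given here. The interval holds 0 but not the value that unchanged junction reads would give. The share was 0.727% in IMPA and 0.731% in IMA. A second PLIN2 locus (circ_0004262) was listed in 4 libraries only, with 2346 and 1549 normalised linear reads in IMPA1 and IMPA5 and 9878 and 8170 in IMA1 and IMA5. Both its IMA values were above both IMPA values, with no test.

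Linear reads rose at both genes of the secretory pathway list that could be measured. The list of 44 such genes had 2 hosts in the table, APP and PLOD2. All 5 of their loci were members, were tested by limma and rose, where 9.97% of all loci tested rose. Their median log2 change was 0.87 against 0.00 over all loci. At APP circ_0000716, normalised linear reads were 4979, 5821, 5433, 5900 and 5090 in IMPA and 9814, 9847, 9855, 10010 and 9761 in IMA, a rise of 1.81-fold (edgeR adjusted p = 1.3e-13). The 4 APP loci rose by 0.81 to 0.91 on the log2 scale. PLOD2, a lysyl hydroxylase that modifies collagen in the endoplasmic reticulum (circ_0000070), had 4240, 4270, 4243 and 3979 in the 4 IMPA libraries that list it and 8193, 8439, 8027, 7785 and 7929 in IMA (log2 change 0.95 ± 0.05 SE, limma adjusted p = 3.95e-12). In both genes the IMA values lay close together and above every IMPA value. ERO1A, the oxidase that serves disulfide formation in the endoplasmic reticulum and is outside the list, rose by 0.95 ± 0.10 (edgeR adjusted p = 2.87e-09). Other genes of the endoplasmic reticulum outside the list did not rise. UGGT1 circ_0001020 had a log2 change of -0.35 ± 0.07 (edgeR adjusted p = 0.000348) and STT3A circ_0011671 of 0.03 ± 0.06 (adjusted p = 0.732), and FKBP9 fell, as given below. A rise of the secretory pathway as a whole is therefore not shown.

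Genes on the extracellular matrix list went both ways. Of 17 members in 10 hosts, 14 were tested by limma, and 4 rose and 5 fell, with a median log2 change of 0.23. Over all loci tested by limma, 9.97% rose and 9.55% fell, and several of the calls here are loci of the same host. All 5 on the list that fell were loci of CEMIP, which takes part in breaking down hyaluronan. Those that rose were COL5A2, 2 loci of the microfibril protein FBN1 and the laminin chain LAMC1. Other hosts of extracellular proteins lay outside the list. Of these, SVEP1 circ_0004711 and ADAMTS9 circ_0010033 fell by 0.84 and 0.41 (limma adjusted p = 1.27e-08 and 0.00576), and 2 of 3 HMCN1 members rose. COL5A2 normalised linear reads were 25499, 27187, 26589, 23808 and 26547 in IMPA and 38889, 40091, 42089, 40643 and 39615 in IMA, a rise of 1.55-fold (log2 change 0.63 ± 0.04 SE, edgeR adjusted p = 7.29e-13). The FBN1 loci, which share an end, rose by 0.34 and 0.29 (edgeR adjusted p = 1.84e-05 and 0.000101). LAMC1 was listed in 3 IMPA and 4 IMA libraries and changed by 0.47 ± 0.11 (limma adjusted p = 0.0039). This call was lost when any of 5 libraries (IMPA3, IMPA5, IMA2, IMA4 or IMA5) was left out, with an adjusted p up to 0.0264. It was also lost in limma without the trend (adjusted p = 0.0604). LAMA4, another laminin chain, did not pass (0.24 ± 0.11, adjusted p = 0.0899).

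CEMIP showed the largest fall. At circ_0009657 (chromosome 21, 26357348 to 26369607) normalised linear reads were 7134, 6279, 7751, 6899 and 7914 in IMPA and 3080, 2898, 2465, 3077 and 3008 in IMA, with every IMA library below every IMPA library. They fell by 1.31 ± 0.07 on the log2 scale (edgeR adjusted p = 2.16e-15), which is 2.48-fold. The 4 other CEMIP members that could be tested fell by 1.11 to 1.28 (limma), and the CEMIP locus with a share of 19.6% had a linear log2 change of -1.22. At that locus the junction reads fell too, by 0.58 on the log2 scale (edgeR adjusted p = 0.00303). None of the 5 CEMIP members tested had a called junction change, and a difference from that locus was not tested. Their junction log2 changes lay between -1.26 and -0.35, with adjusted p from 0.107 to 0.765 in edgeR. The sixth member (circ_0009656) was listed in IMPA1 and IMPA4 only, with 2 and 3 junction reads.

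**Figure D3:**
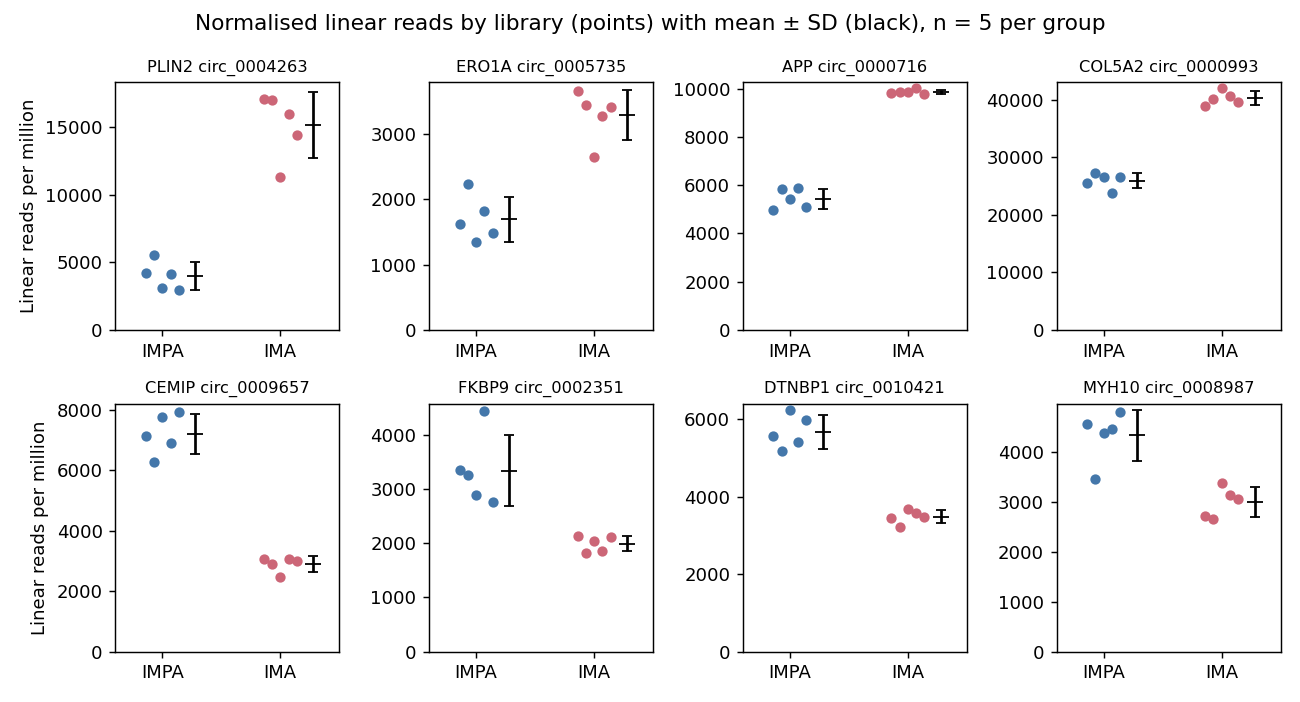
Normalised linear reads (reads per 1000000 of the TMM-scaled linear library size, vertical axes from 0) of 8 members in the 5 IMPA (blue) and 5 IMA (red) libraries, with the mean ± SD in black. PLIN2, ERO1A, APP and COL5A2 lie higher in all IMA libraries, and CEMIP, FKBP9, DTNBP1 and MYH10 lower in all.

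Genes of adhesion and the cytoskeleton also went both ways, by gene. Of 18 members in 6 hosts, 14 were tested by limma, 4 rose and 5 fell, and the median log2 change was 0.08. Over all loci tested by limma, 9.97% rose and 9.55% fell. The 4 that rose were loci of LMO7, by 0.19 to 0.37. In edgeR, 2 of these calls were lost with plain library sums or with uniquely mapped reads as library sizes. The 5 that fell were the 3 loci of the integrin chain ITGA4, which start at the same position, and 2 loci of MYH10, the heavy chain of nonmuscle myosin. ITGA4 circ_0000922 fell by 0.49 ± 0.07 on the log2 scale (edgeR adjusted p = 5.48e-06) and MYH10 circ_0008987 fell by 0.53 ± 0.08 (adjusted p = 2.32e-06). The linear reads of ITGB1, the partner chain of ITGA4, were 23665 to 30055, normalised, in IMPA and 27466 to 29127 in the 4 IMA libraries that list it (log2 change 0.05 ± 0.06 SE, limma adjusted p = 0.584). ENAH, an actin regulator kept on the striated muscle list, fell by 0.44 ± 0.05 (edgeR adjusted p = 1.27e-07).

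The other lists held few members, to be read beside the 19.5% of all loci called by limma. Of the adipocyte and lipid genes, 4 loci were members, 2 of them tested: PLIN2 rose, and ACSL3, which activates fatty acids, fell by 0.42 ± 0.09 (limma adjusted p = 0.000633), a call lost without IMPA3 (0.0108). ACSL5 was listed in 3 libraries. Of the RNA binding, splicing and translation genes, 9 loci were members and none of the 6 tested passed, with log2 changes from -0.21 to 0.10. They include 2 loci of QKI, an RNA binding protein that can promote circle formation, at 0.04 ± 0.06 and 0.07 ± 0.06, and the splicing factor SF3B1 at -0.13 ± 0.05. Of the cell cycle and mitosis genes only 3 of 21 loci were members, and the single locus tested, in ATAD2, had a log2 change of 0.04 ± 0.09. The members in NCAPG and CENPF, both of mitotic chromosomes, were listed in all 5 IMPA libraries but in IMA3 alone among the IMA libraries.

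Outside the lists, the largest rises in edgeR after ERO1A were at RAB12, a small GTPase of membrane traffic (0.83 ± 0.06, adjusted p = 7.29e-13), the deubiquitinase USP47 (0.80 ± 0.07), the hypoxia factor HIF1A (0.64 ± 0.08), HACD1, which acts in the elongation of fatty acids (0.62 ± 0.07), and FAM129A (0.59 ± 0.07), with adjusted p of 2.51e-07 or less. Limma added EYA3, a transcriptional coactivator (0.86 ± 0.12), and the kinesin KIF1B (0.69 ± 0.07), with adjusted p of 7.89e-06 and 4.59e-08. KIF5B rose by 0.29 ± 0.06 (limma adjusted p = 0.000456), a call lost in limma without the trend (adjusted p = 0.0116). TMEM50B, LRRFIP1, TMF1 and SCAMP1 rose by 0.45 to 0.52 (limma adjusted p of 0.000194 or less).

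Among the members tested by edgeR, the largest falls outside the lists were at FKBP9, a prolyl isomerase of the endoplasmic reticulum (0.74 ± 0.09 down on the log2 scale, edgeR adjusted p = 1.88e-07), and DTNBP1, a subunit of a complex for lysosome-related organelles (0.70 ± 0.06 down, adjusted p = 1.32e-10). SPG21, the signalling adaptor YWHAB, both loci of the cytokine receptor IL27RA and PSPC1, a paraspeckle protein, fell by 0.46 to 0.53 (edgeR adjusted p of 0.000207 or less). In limma FAM198B fell by 0.87 ± 0.10, the adhesion protein SVEP1 by 0.84 ± 0.08, PTN by 0.60 ± 0.06 and TBCD, a tubulin folding cofactor, by 0.50 ± 0.08, with adjusted p of 4.52e-05 or less. PTN normalised linear reads were 36557 to 41698 in the 4 IMPA libraries that list it and 23804 to 29828 in IMA. Its groups did not overlap.

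Few circles changed with these linear signals. Of the 359 members whose junction reads could be tested, 4 were called at an adjusted p under 0.01 (edgeR, 1.11%), where 0.927% of all 1294 circRNAs tested were called, 0.464% in each direction. They were 2 loci of LMO7 and single loci of MYBPC1 and COL5A1. A circRNA was tested where it had junction reads in at least 5 libraries, which MYBPC1 and COL5A1 reached through their 5 IMA libraries, the group where they are high. In this test their calls and their direction are therefore no support for a change, and only the LMO7 calls are read as such. Apart from these reads, the paper reports the COL5A1 circle and both of these LMO7 circles as up-regulated by quantitative PCR (qRT-PCR). An unadjusted p under 0.05 was reached by 43 members. Of the 50 members with a called change of linear reads, 2 (both LMO7) had a called change of junction reads and 48 did not. Junction reads were few, with a median of 6.1 per library at the members listed in all libraries against 470 linear reads, so a missing call says little about the circle.

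The difference between the circular and the linear change was therefore tested itself, as an interaction of the kind of read with the group, in edgeR with the library as a block. It comes from a joint fit of both kinds of read, so it need not equal the junction change minus the linear change of the separate fits. Of the 132 members tested, 3 were called (2.27%), where 0.725% of the 690 loci were, 0.58% with the circle ahead and 0.145% with the linear reads ahead. All 3 were among the 50 with a linear change. For the other 47 the difference did not pass, and the 95% interval held 0 for 33 of them. For 30 of the 47 the interval held both 0 and the value expected if junction reads had not moved. There, a circle moving with its linear reads and a circle standing still could not be told apart. This count is approximate, because intervals are unreliable where the difference is close to 0. At USP47 circ_0007658 the difference was -0.02 with an SE of 1.48 (-2.93 to 2.88), where the median SE of the members was 0.38. The median half-width of the interval over the 132 members was 0.74 on the log2 scale, or 1.67-fold.

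**Figure D4:**
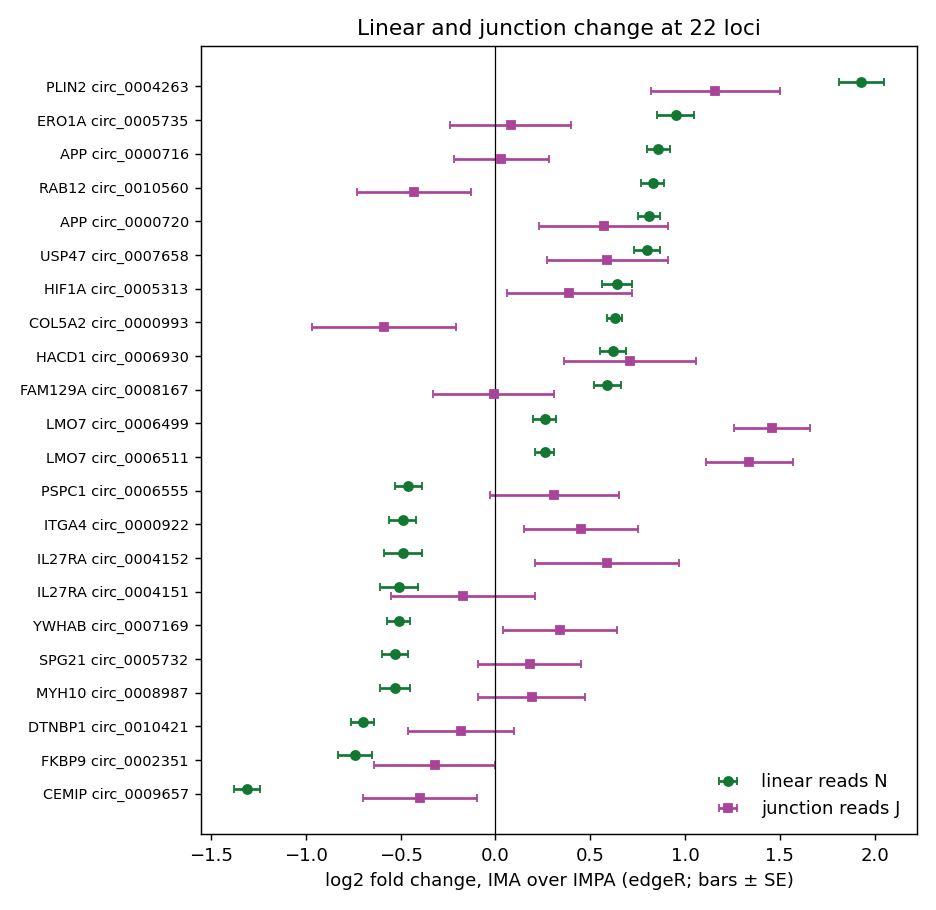
Change from IMPA to IMA (log2 fold change, edgeR, bars ± SE) of linear reads (green circles) and junction reads (purple squares) at the 20 members with the largest called linear changes and the 2 LMO7 loci with called junction changes. Linear bars are narrow and lie off 0, junction bars are wide, and of these loci the difference between both changes passed the test at the 2 LMO7 loci and at RAB12. That difference was estimated in a joint fit and need not equal the gap between the 2 symbols, which come from separate fits.

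At LMO7 the circle rose well beyond the linear reads. Locus circ_0006499 (chromosome 12, 35520126 to 35552054, 667 nt spliced) had 13, 6, 16, 10 and 19 junction reads in IMPA and 32, 25, 50, 24 and 31 in IMA. The junction change was 1.46 ± 0.20 (edgeR adjusted p = 1.25e-05) and the linear change 0.26 ± 0.06 (adjusted p = 0.00124), a difference of 1.36 with a 95% interval from 0.91 to 1.81 (adjusted p = 8.92e-07). Its share was 1.95% ± 0.481 (SD, n = 5) in IMPA and 6% ± 1.12 in IMA. The second locus, circ_0006511, ends at the same position and gave a difference of 1.28 (0.77 to 1.80, adjusted p = 0.000266), with shares of 1.49% ± 0.579 and 4.34% ± 0.622. At both loci every IMA library was above every IMPA library in share. The junction log2 changes of the 7 other LMO7 members lay between -0.30 and 0.99, and none was called (adjusted p from 0.22 to 0.99). The linear call of circ_0006499 was lost with plain library sums or uniquely mapped reads as library sizes (adjusted p up to 0.0174), and its junction and interaction calls held under each scaling tried.

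RAB12 was the single member called in the other direction. Normalised linear reads were 3353, 3506, 3288, 3284 and 3186 in IMPA and 5367, 6290, 5725, 5929 and 6235 in IMA, while junction reads were 7, 7, 19, 18 and 9 in IMPA and 11, 6, 7, 6 and 5 in IMA. Linear reads separated the groups and junction reads overlapped. The circular change minus the linear change was -1.31 (95% interval -1.93 to -0.69, edgeR adjusted p = 0.00509). This call was lost when any of 6 libraries (IMPA3, IMPA4 and IMA2 to IMA5) was left out, with an adjusted p up to 0.0882, and with plain library sums or uniquely mapped reads as library sizes (up to 0.0279). IMPA3 and IMPA4 held 37 of the 60 junction reads of IMPA at this locus.

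Other members gave differences that did not pass. At ITGA4 circ_0000922 the linear reads fell while the junction reads had a log2 change of 0.45 ± 0.30, a difference of 1.03 (0.45 to 1.62, edgeR adjusted p = 0.0243), and the shares of 2.98% ± 1.65 in IMPA and 7.08% ± 3.4 in IMA overlapped. At COL5A2 the linear reads rose while the circle had 4, 2, 10, 7 and 6 junction reads in IMPA and 2, 2, 4, 2 and 3 in IMA, a difference of -1.46 (-2.41 to -0.52, adjusted p = 0.0728). At APP circ_0000716 the circle had 9, 10, 11, 16 and 12 junction reads in IMPA and 11, 8, 15, 9 and 7 in IMA, and the difference of -0.79 (-1.38 to -0.21) had an adjusted p of 0.125.

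**Figure D5:**
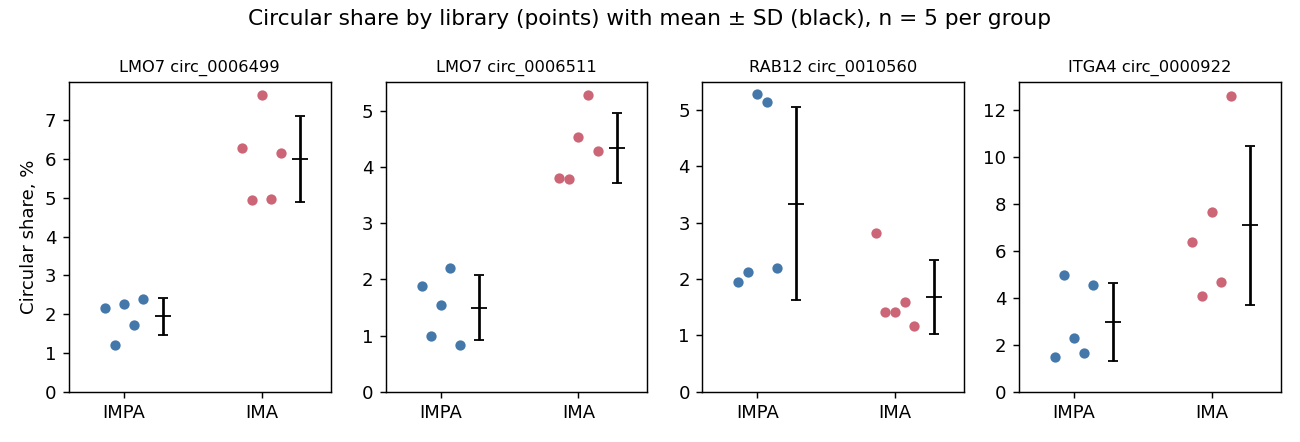
Circular share (percent, vertical axes from 0) in the 5 IMPA (blue) and 5 IMA (red) libraries at 4 members, with the mean ± SD in black. The 2 LMO7 loci separate the groups, from 1.95% to 6% and from 1.49% to 4.34% on average, RAB12 overlaps at 3.34% and 1.68%, and ITGA4 overlaps at 2.98% and 7.08%.

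MYBPC1 and COL5A1 are given as a description, since their linear reads could not be tested and their junction reads entered the test through IMA alone. MYBPC1, a myosin-binding protein of slow muscle fibres (circ_0002854, chromosome 5, 64143969 to 64145981), had 7, 5, 10, 7 and 7 junction reads in IMA and 0 in every IMPA library. Its normalised linear reads were 10119, 9862, 8780, 9536 and 9908 in IMA, and the table has no entry for IMPA. COL5A1, the partner chain of COL5A2 (circ_0005870), had 9, 9, 6, 8 and 6 junction reads in IMA and 3 in IMPA3 alone among the IMPA libraries. Its normalised linear reads were 6103 in IMPA3 and 5268 to 6350 in IMA, so that the only IMPA value lay within the range of IMA. The table holds no count of 1, so a 0 can stand for 0 or 1 read, and no fold is given against such a group.

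Of the members, 4 were listed in IMPA only and 6 in IMA only. Together these were 10 of the 372 members, against 6 of the 950 loci above 5% and 16 of all 1322 loci with reads. An entry depends on junction reads, of which the members had fewer (median 40 against 66). Besides MYBPC1, 4 of these members were listed in all 5 libraries of their group, and they are named after their values were seen. ITGAV circ_0000946 was listed in IMPA only (25 junction reads), and ITGAV circ_0000948, SRSF11 circ_0001729 and CHD2 circ_0009572 in IMA only (12, 12 and 11 junction reads). By qRT-PCR the paper reports circ_0000946 as down-regulated. The entries filled 89.6% of the possible library values of the members in IMPA and 81.1% in IMA, and 95.1% and 89.1% at the loci above 5%. Such gaps follow the junction reads and not the linear reads, so at these loci the linear signal in the group without entries was not measured. ITGAV and CHD2 each had another locus, with a share above 5%, listed in all 10 libraries. Linear reads had a log2 change of 0.05 at ITGAV circ_0000943 and -0.03 at CHD2 circ_0009583 (edgeR adjusted p = 0.565 and 0.789).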

How the data were processed

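Ribosomal RNA was depleted by the authors before sequencing. They mapped the filtered reads with HISAT2, called circRNAs with find_circ and CIRI2 and kept locations found by both. They deposited junction read counts, the same counts as CPM (named TPM, not used here), and a table of loci with junction and non-junction read counts for the libraries in which each circRNA was found. Its 10 other samples were not used. Tool versions and the genome build are not given in the sources used here, coordinates are those of the files, and chromosome numbers come from the RefSeq table (ARS1.2) through gene IDs, of which 1310 of 1310 matched.

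Here, linear and junction reads were tested in R 4.3.3 with edgeR 4.0.16 (TMM, prior count 2, quasi-likelihood test) and, for loci with entries in at least 3 libraries of each group, limma 3.58.1 with a trend on log2 reads per 1000000 (0.5 added to each count). Junction reads were tested at loci with a count in at least 5 libraries. P-values were Benjamini-Hochberg adjusted over all loci tested, with calls under 0.01, the threshold of the study. The prior count shrinks folds of few reads towards 0. Standard errors and intervals in edgeR were derived from the shrunk fold and the test statistic, so they are unreliable for folds close to 0. Alternatives were other scalings (DESeq2 1.42.0 size factors among them), filters, tests and thresholds, and each library left out. The fits were tested on simulated data. Intervals and error bars cover the spread between libraries and counting error.

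The members and gene lists were chosen with earlier results of these data known. Loci were named by rule: members with the lowest shares, the most linear reads, the largest called changes, any called junction or interaction change, the most linear reads of each list, the hosts with most members, and the loci next to the threshold. Samples were grouped by their labels. Replicate numbers were not used to pair the groups, and whether libraries with the same number share a goat is not stated.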

Additional observations from a re-analysis of the deposited data

Results flagged for a closer look

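Among 137 groups of 4 or 5 libraries at the 86 named loci, 6 held a library whose normalised linear reads stood apart from the others of its group, and a rule of this kind picks out about 5% of groups by chance. PABPC1 circ_0007276 had 4575 normalised linear reads in IMPA4 against 2990 to 3260 in the other IMPA libraries. LMO7 circ_0006511 had 6520 in IMA5 against 6819 to 6901 in the other IMA libraries. KIFAP3 circ_0007998 had 3002 in IMPA4 against 3238 to 3312, and ATAD2 circ_0007456 had 954 in IMPA3 against 836 to 868. PLOD2 circ_0000070 had 3979 in IMPA5 against 4240 to 4270 in the other 3 IMPA libraries that list it, and TBCD circ_0009146 had 946 in IMA3 against 854 to 869 in 3 other IMA libraries.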

How the results depend on the processing

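Counts of calls are given as main value and alternative, over all loci unless members are named. A threshold of 0.05 called 246 loci in linear reads by edgeR (150 at 0.01), 393 by limma (231) and 15 in the difference of circular and linear change (5). With uniquely mapped reads as library sizes the difference was called at 21 loci, 5 of them members (3), all with the circle ahead, and its median log2 value over all loci moved from 0.03 to 0.27, while that of junction reads moved from -0.06 to 0.13. A mean of at least 10 junction reads left 2 member calls in junction reads (4), LMO7 both times. Defining the share as J/(J + N) gave 716 members, all 372 included. Leaving out each library gave 109 to 145 calls in edgeR linear reads (members 38 to 48), 184 to 228 in limma (members 82 to 99), 8 to 12 in junction reads (members 3 to 4), 4 to 7 in the difference (members 2 to 4), and 363 to 382 members. With the replicate number as a block the calls were 173 for edgeR linear reads (members 59), 258 for limma (members 108) and 11 for junction reads (members 4). Correlations of libraries with the same number were -0.101 to 0.0851 in linear reads. They cannot settle whether such libraries share a goat, which is not stated. Of 1361 alternative values of the named loci, 1310 kept direction and side of the threshold, 44 lost a call and 7 gained a call, and none turned direction while called. EIF3E circ_0007297 lost its linear call in 8 of 10 runs without a library, LMO7 circ_0006504 in 6 and KIFAP3 circ_0007992 in 3. Each of these calls was also lost with plain library sums and with uniquely mapped reads as library sizes, and the cause was not tested. COL5A1 circ_0005870 lost its junction call without IMPA1 or IMPA5 (adjusted p up to 0.0134). At a median of 6.1 junction reads per library, the difference between circular and linear change had a median half-width of 0.74 (log2).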
